A study of Mus musculus with 12 samples.

Results

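The comparison described here set marginal zone (MZ) B cells against follicular (FO) B cells of the spleen in mice with a conditional knockout of Zbtb24 (CKO). Its members were the 3 MZ CKO and 3 FO CKO libraries, which are 6 of the 12 libraries of the series, and the 17712 genes that passed a filter on low counts, of 46078 in the deposited count table. The CKO animals are labelled Zbtb24-/- and carry VAVcre, a Cre recombinase transgene under the Vav promoter. That promoter is active in blood-forming cells at large, so the deletion is not limited to B cells. The comparison animals are labelled WT and are VAVcre mice, so all groups carry the Cre transgene. All animals were C57BL/6 mice of 8 to 12 weeks. Both B cell types were separated from spleen with a commercial kit (Miltenyi), and each animal number appears on 1 FO and 1 MZ library. The CKO animals were 1512, 1514 and 2002, and values per library are given in that order. The controls were animals 1505, 1507 and 2003.

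FO B cells circulate through the blood and lymphoid follicles and enter germinal centre responses, which need T cell help. MZ B cells lie beside the marginal sinus of the spleen, where they meet blood-borne antigens, and they turn quickly into antibody-secreting cells. An immature B cell becomes an MZ B cell when its Notch2 receptor is engaged by the ligand DLL1 on stromal cells; the cleaved receptor then enters the nucleus and acts through the DNA-binding protein RBPJ and MAML coactivators. MZ B cells are held in place by sphingosine 1-phosphate receptors and integrins, and are recognised by high CD21 (Cr2) and CD1d with low CD23 (Fcer2a) and IgD.

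Zbtb24, the targeted gene, encodes a zinc finger protein whose mutation causes a form of the ICF immunodeficiency syndrome. It was counted at 48.33, 46.87 and 50.01 CPM (counts scaled to the size of the library) in the FO CKO libraries and at 46.38, 41.76 and 41.91 CPM in the MZ CKO libraries. The control libraries held 60.8 to 62.5 CPM in FO cells and 49.09 to 54.41 CPM in MZ cells. CKO values lay below the control values in each cell type without overlap, but reads over the gene were not lost. Gene totals do not show which part of the gene was removed. Between the 2 cell types of the CKO animals Zbtb24 did not pass (log2 fold change -0.15, adjusted p = 0.1006), but without animal 1512 it was lower in MZ cells (-0.21, edgeR adjusted p = 0.04087).

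The CKO libraries held 37050034 to 43396215 counts assigned to genes, and a further 43.7% to 50.4% of all counted reads fell on no single gene. On a principal component plot of the 6 libraries, the first component (43.4% of the variance) separated MZ from FO cells, with FO at -41, -42.8 and -34.2 and MZ at 46.4, 27.5 and 44.1. The second component (26.7%) separated animals instead: both libraries of animal 1514 lay at the low end (-35.5 and -41.6) and both of animal 2002 at the high end (40 and 34.5). The contrast was therefore taken within animals, with the animal as a block in edgeR's quasi-likelihood test.

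Of the 17712 genes, 6333 (35.8%) differed between MZ and FO cells at a Benjamini-Hochberg adjusted p under 0.05, and these are called passed below. Of these, 3396 (19.2%) were higher and 2937 (16.6%) lower in MZ cells. Counts of list members given below are to be read beside these shares. With upper quartile scaling 2962 were higher and 3528 lower. Most differences were small: 1977 of the higher and 1565 of the lower genes differed by less than 1.5-fold. A difference of at least 2-fold was found for 700 higher and 521 lower genes, and one of at least 4-fold for 206 higher and 45 lower genes. All 3 animals showed the direction of the fit for 3351 of the higher and 2902 of the lower genes. Across all genes tested, MZ values lay above FO values without overlap in 18.6% and below in 17.9%; the median log2 fold change was -0.00932. Without the block 3243 genes (18.3%) passed, and 3239 of the 6333 (51.1%) were among them. With 3 animals the smallest two-sided p of an exact test on 1 gene's within-animal differences is 0.25, so single-gene calls rest on the spread shared across genes in the edgeR fit. Each library is labelled with 1 animal number. The blocked fit sets the MZ minus FO difference against its spread among these 3 animals, pooled in part with that of other genes.

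The labels of the 2 cell types were set beside marker lists that were chosen with earlier results of these data known. Of the MZ markers, S1pr3, Myof and Nebl are also among the genes with the largest differences described below. The counts that follow are therefore no independent check of the labels. All 12 MZ markers tested were higher in MZ libraries, without overlap and also without the block, with a median log2 fold change of 2.18. Cr2, the complement receptor CD21, was counted at 1022, 954.4 and 1150 CPM in FO and 3259, 2439 and 3860 CPM in MZ libraries, a 3.03-fold difference (log2 1.60 ± 0.09 SE, adjusted p = 2.779e-13). Cd1d1, which presents lipids, was at 51.01, 54.47 and 68.07 CPM in FO and 229.9, 222.7 and 261.9 CPM in MZ libraries, 4.159-fold higher. Cd9, a tetraspanin, went from 12.35 to 14.15 CPM in FO to 51.18 to 66.04 CPM in MZ libraries. Cd36, a scavenger receptor, was 4.691-fold, Plac8 3.956-fold, Mzb1, a chaperone of immunoglobulin M assembly, 2.727-fold and the Fc receptor-like protein Fcrl5 9.442-fold higher in MZ libraries.

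Of the 10 FO markers, 9 were lower in MZ libraries and 1 was higher, with a median log2 fold change of -1.32. All 10 passed without the block too. Fcer2a, the low-affinity IgE receptor CD23, was at 534.9, 513.2 and 591.3 CPM in FO and 75.42, 94.01 and 75.29 CPM in MZ libraries, a 6.685-fold difference. Ighd, the constant region of IgD, was at 1635, 1221 and 1447 CPM in FO and 468.3, 365.3 and 386.9 CPM in MZ libraries, 3.503-fold lower. The exception was Cxcr5, the receptor that draws B cells to follicles, which was 1.36-fold higher in MZ libraries (469 to 545.6 CPM in FO, 619.8 to 756.3 CPM in MZ, adjusted p = 2.607e-05). Of 6 genes that all B cells express, Ms4a1 (CD20) was 1.548-fold higher in MZ libraries. Cd79a, Cd79b, Pax5 and Ebf1 did not pass, with fitted log2 fold changes between -0.11 and 0.17.

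The Notch2 pathway was read through its promoters first, because RBPJ binds the core TGGGAA. The 250 bases before the RefSeq start (GRCm38.p6) were searched for TGGGAA on either strand (TTCCCA on the printed strand). Of the 32851 RefSeq promoters searched, which do not cover every chromosome, 7094 (21.6%) hold it. Of the 19 promoters of the 14 Notch list genes found there 6 (31.6%) do. Of the 13 promoters of 9 MZ markers 4 (30.8%), and of the 8 promoters of 6 FO markers 3 (37.5%), hold it. Below are 2 Notch target genes and 2 MZ markers that were higher in MZ cells, 5′ to 3′ on the gene's strand with the core in capitals: Hes5 (chr4:154960673-154960922, plus strand), Dtx1 (chr5:120711670-120711919, minus strand), Cr2 (chr1:195176720-195176969, minus strand) and Cd9 (chr6:125494761-125495010, minus strand).
Hes5: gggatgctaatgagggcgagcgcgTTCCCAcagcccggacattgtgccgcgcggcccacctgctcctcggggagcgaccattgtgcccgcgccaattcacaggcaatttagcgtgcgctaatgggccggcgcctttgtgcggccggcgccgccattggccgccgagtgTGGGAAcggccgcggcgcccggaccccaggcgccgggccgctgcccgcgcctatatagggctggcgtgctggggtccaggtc
Dtx1: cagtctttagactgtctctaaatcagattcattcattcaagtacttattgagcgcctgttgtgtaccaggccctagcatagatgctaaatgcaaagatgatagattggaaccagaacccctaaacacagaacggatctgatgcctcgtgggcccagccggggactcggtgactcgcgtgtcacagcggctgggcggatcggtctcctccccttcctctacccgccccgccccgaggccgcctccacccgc
Cr2: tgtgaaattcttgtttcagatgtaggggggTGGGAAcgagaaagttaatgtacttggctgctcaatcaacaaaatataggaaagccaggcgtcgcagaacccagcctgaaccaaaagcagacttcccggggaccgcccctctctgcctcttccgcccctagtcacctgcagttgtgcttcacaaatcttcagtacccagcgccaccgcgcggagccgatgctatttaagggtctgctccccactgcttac
Cd9: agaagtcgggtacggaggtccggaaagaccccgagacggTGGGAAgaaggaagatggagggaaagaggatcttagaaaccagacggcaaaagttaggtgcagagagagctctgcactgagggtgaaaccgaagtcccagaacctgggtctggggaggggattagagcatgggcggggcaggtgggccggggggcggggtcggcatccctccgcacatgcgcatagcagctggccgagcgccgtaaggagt
The Hes5 window holds the core on both strands, those of Cr2 and Cd9 hold it once, and that of Dtx1 not at all. These are matches of letters in a short window, and no binding was measured.

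Of the 5 Notch target genes tested, 4 were higher in MZ cells, and the receptor Notch2 did not pass. Notch2 was at 860.1, 806.9 and 872.4 CPM in FO and 891, 846.1 and 913.8 CPM in MZ libraries (log2 0.07, adjusted p = 0.5192). Dtx1, a ubiquitin ligase induced by Notch, was at 269.4, 352 and 384.9 CPM in FO and 1746, 1743 and 1656 CPM in MZ libraries, 5.195-fold higher. Hes1, a repressor induced by Notch, was at 33.47, 38.77 and 33.95 CPM in FO and 105.6, 88.56 and 102.4 CPM in MZ libraries, 2.806-fold higher. Its relatives Hes5 (1.854, 2.593 and 4.375 against 14.77, 16.06 and 12.09 CPM, 5.042-fold) and Heyl were higher too, though Heyl was counted at 0 to 0.1007 CPM in FO and 0.7178 to 1.12 CPM in MZ libraries. The FO values of Heyl were below the filter on low counts, so it was tested only because of its MZ values. The feedback gene Nrarp, another Notch target, did not pass (log2 -0.08).

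Among the other Notch genes, the glycosyltransferase Lfng, which modifies Notch receptors, was lower in MZ cells, at 141.2, 161.4 and 166.1 CPM in FO and 64.1, 92 and 76.11 CPM in MZ libraries (2.023-fold). Of the nuclear partners, the coactivator Maml2 was 1.474-fold higher and Maml1 1.233-fold lower. Rbpj was 1.185-fold higher, but its call was lost without the block (adjusted p = 0.09216). In all, 8 of the 18 list genes tested were higher and 4 lower, 8 of these 12 passed without the block, and the median log2 fold change was 0.116. The higher calls of Mib1 (log2 0.20) and Spen (0.19) and the lower call of Mfng (-0.18) were lost without the block and in DESeq2 (edgeR adjusted p = 0.2682, 0.1721 and 0.1702 without the block), and that of Spen also without animal 1514 (0.4527). Mib1 and Mfng missed the threshold without animal 1512 (0.1782 and 0.175) or 2002 (0.1378 and 0.2789), and Maml1 without animal 2002 (edgeR adjusted p = 0.06484).

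The 14 genes with the largest differences in each direction were taken among genes that passed, whose MZ and FO libraries did not overlap and whose mean reached 5 CPM in one cell type. All 28 also passed without the block, but a choice by large folds and no overlap favours such a pass.

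**Figure D1:**
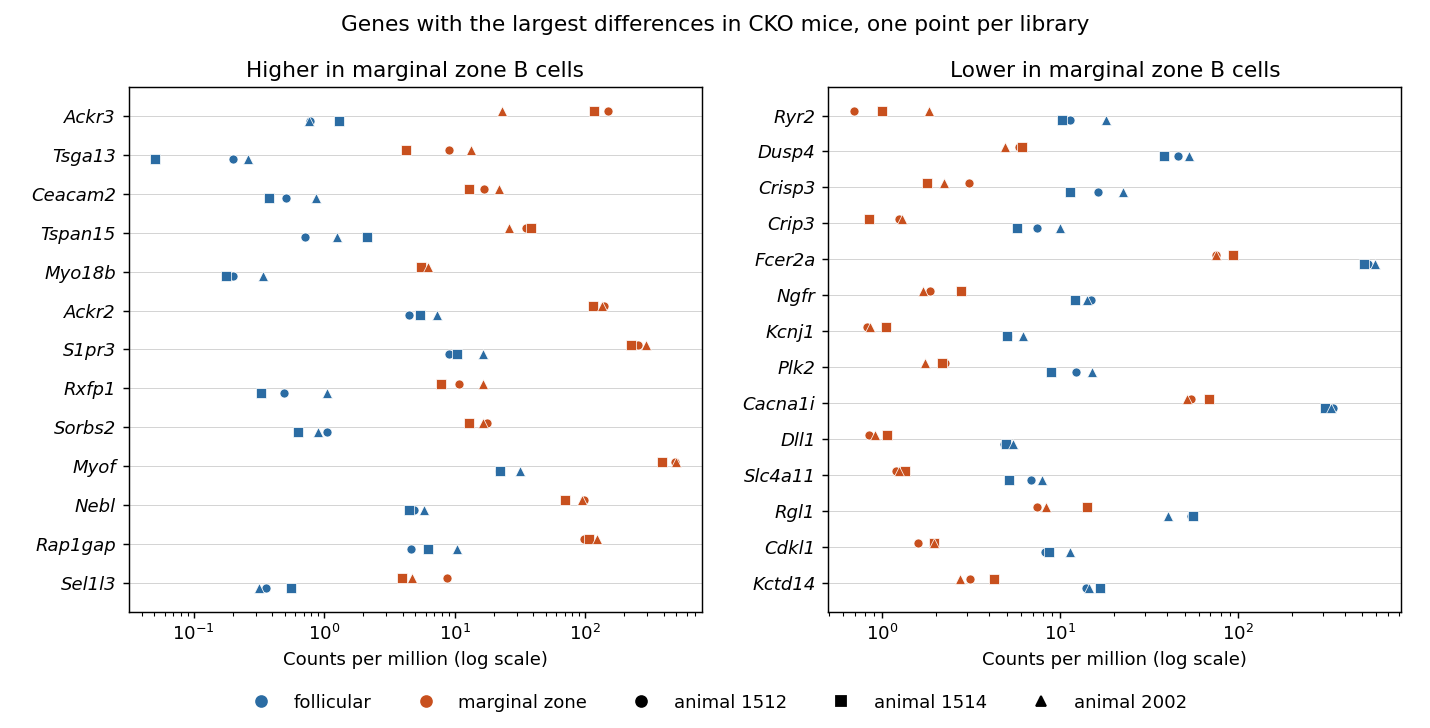
CPM on a log scale of genes with the largest differences in each direction (13 higher, 14 lower), 1 point per CKO library, with colour for the cell type and marker shape for the animal. Points of the 2 cell types do not overlap for any of the genes, which the choice of genes fixed. Ackr3 in MZ libraries runs from 23.27 to 150.7 CPM.

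Among the higher genes were 3 receptors of chemokines or lipids. Ackr3 (chr1:90203980-90216751), an atypical receptor that binds CXCL12, was at 0.7816, 1.309 and 0.7598 CPM in FO and 150.7, 116.8 and 23.27 CPM in MZ libraries. MZ cells of animal 2002 held far less Ackr3 than those of the other two. The fitted difference was 99.35-fold (adjusted p = 0.01152), but without animal 1514 the call was lost (log2 6.73, edgeR adjusted p = 0.1485). Ackr2 (chr9:121898355-121911074), a scavenger of inflammatory CC chemokines, was at 4.466, 5.387 and 7.336 CPM in FO and 139.8, 114.2 and 134.6 CPM in MZ libraries, 22.97-fold higher. S1pr3 (chr13:51408639-51422797), a sphingosine 1-phosphate receptor, was at 9, 10.37 and 16.4 CPM in FO and 254.6, 224.2 and 292.6 CPM in MZ libraries, 22.16-fold higher. For each of these receptors every MZ library lay above every FO library, which the choice of genes fixed.

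Myof, a membrane-repair protein of the ferlin family, was at 21.84, 22.35 and 31.94 CPM in FO and 486.2, 385.6 and 497.4 CPM in MZ libraries (18.23-fold). Nebl, the actin-binding protein nebulette, was 17.44-fold, Sorbs2, a cytoskeletal adaptor, 18.44-fold and the myosin Myo18b 24.36-fold higher. Myo18b was at 0.201, 0.1762 and 0.3406 CPM in FO and 5.634, 5.523 and 6.239 CPM in MZ libraries. Tspan15, a tetraspanin that partners with the protease ADAM10, was 25.1-fold higher, and Rap1gap, which switches off the GTPase Rap1, 16.06-fold. The relaxin receptor Rxfp1 was 19.44-fold and the adhesion protein Ceacam2 29.7-fold higher. Tsga13 was at 0.201, 0.05034 and 0.262 CPM in FO and 8.984, 4.25 and 13.39 CPM in MZ libraries (51.27-fold higher). Tsga13 and Myo18b had too few FO counts to meet the filter on low counts, so both were tested only because of their MZ values. Sel1l3 (13.94-fold) was also among the higher genes. The last gene taken, Sel1l3, stood at a log2 fold change of 3.801, and the next that met the criteria, Ffar2, at 3.795.

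The genes lower in MZ cells had smaller folds. Ryr2 (chr13:11553102-12106945), a calcium release channel, was at 11.37, 10.3 and 18.1 CPM in FO and 0.6949, 0.9925 and 1.822 CPM in MZ libraries, 11.49-fold lower (log2 -3.52 ± 0.16 SE, adjusted p = 1.956e-15). Dusp4, a phosphatase of MAP kinases, was at 45.96, 38.31 and 53.03 CPM in FO and 5.857, 6.133 and 4.887 CPM in MZ libraries, 8.008-fold lower. Cacna1i, a voltage-gated calcium channel, was at 344, 309.1 and 331.2 CPM in FO and 54.35, 68.97 and 51.38 CPM in MZ libraries, 5.64-fold lower. Another channel gene, that of the potassium channel Kcnj1, was 5.917-fold lower. None of these genes had an MZ library as high as any FO library, which the choice of genes fixed too.

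Ngfr, the p75 neurotrophin receptor, was 6.492-fold, the kinase Plk2 5.719-fold, Rgl1, an exchange factor for Ral GTPases, 5.122-fold and the kinase Cdkl1 5.04-fold lower in MZ libraries. Dll1, a Notch ligand, was at 4.846, 4.959 and 5.397 CPM in FO and 0.8438, 1.069 and 0.9111 CPM in MZ libraries, 5.342-fold lower. Crisp3, a secreted cysteine-rich protein, was 6.92-fold, Crip3 6.712-fold, the membrane transporter Slc4a11 5.163-fold and Kctd14 4.483-fold lower, and Fcer2a is described above. Kctd14, the last gene taken, stood at a log2 fold change of -2.164, and the next, Sdc1, at -2.124. Crisp3 was at 11.38 to 22.64 CPM in FO and 1.781 to 3.053 CPM in MZ libraries of CKO animals, and at 3.408 to 6.85 CPM in FO and 0.3833 to 0.7048 CPM in MZ libraries of controls. Its log2 fold change was -2.79 in CKO and -3.10 in control animals.

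**Figure D2:**
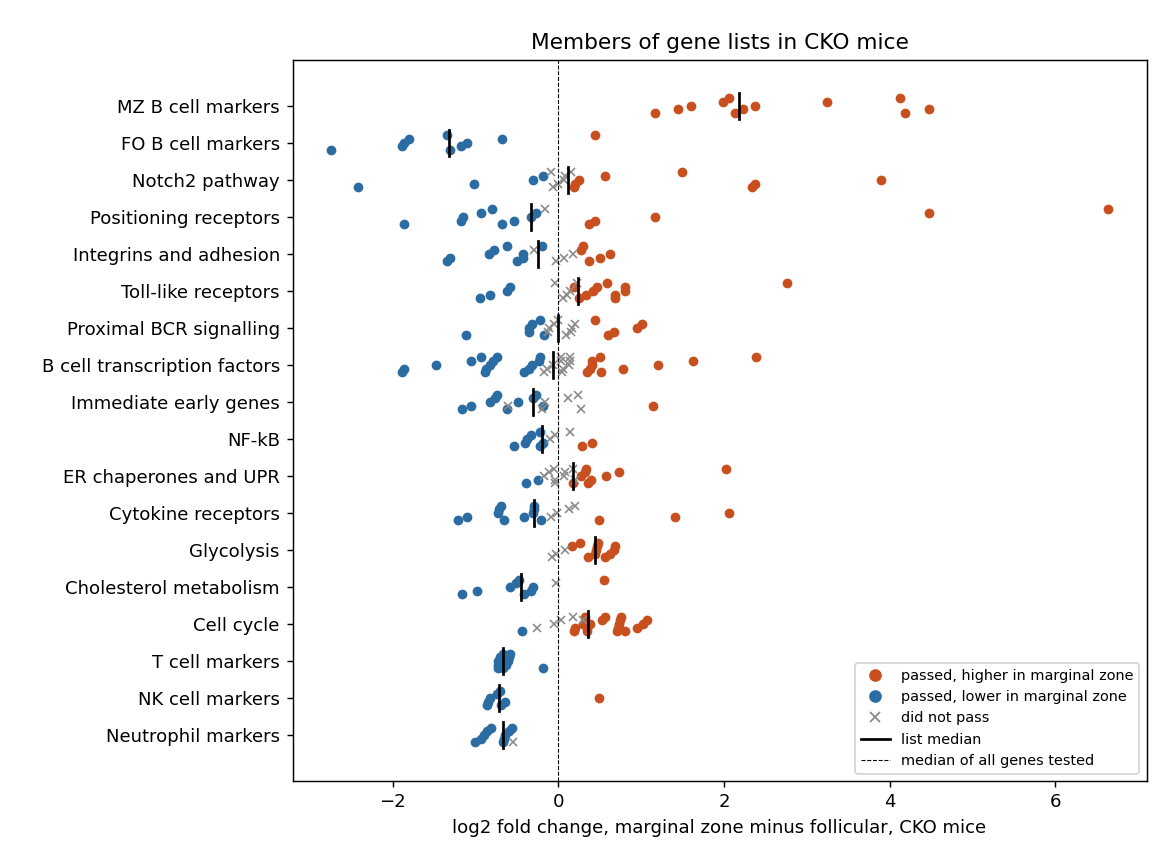
Log2 fold change (MZ minus FO, CKO mice) of every tested member of 18 gene lists, 1 point per gene; filled points passed, crosses did not, thick bars are list medians and the dashed line is the median of all genes tested (-0.00932). MZ markers lie to the right (median 2.18) and FO markers to the left (median -1.32), and glycolysis (0.448) and cholesterol genes (-0.447) lie mostly on opposite sides.

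Receptors that place B cells within the spleen differed in both directions: of 15, 5 were higher and 9 lower in MZ cells, 12 of them also without the block. Besides S1pr3, the sphingosine 1-phosphate receptor S1pr1 was higher, at 410, 420 and 404.5 CPM in FO and 904.5, 891.9 and 958 CPM in MZ libraries (2.242-fold). S1pr4 went the other way, at 222.3, 232.5 and 244.4 CPM in FO and 102.3, 120.1 and 92.82 CPM in MZ libraries (2.216-fold lower). Cnr2, a cannabinoid receptor, was 1.291-fold higher. Receptors that lead B cells to the T cell zone or the follicle border were lower: Ccr7 was at 279.1, 276.4 and 231.1 CPM in FO and 126.3, 134.1 and 90.47 CPM in MZ libraries (2.252-fold), and Gpr183 was 1.597-fold lower. Cxcr4, the CXCL12 receptor, was 3.653-fold and Ccr6 1.912-fold lower. CXCL12 has 2 receptors on this list, and Ackr3 and Cxcr4 differed in opposite directions.

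Of 18 integrin and adhesion genes, 5 were higher and 9 lower in MZ cells, but only 8 of these 14 passed without the block. Itgal, a subunit of the integrin LFA-1, was at 141.5, 145.2 and 138.8 CPM in FO and 170.6, 199.2 and 177.7 CPM in MZ libraries (1.291-fold higher), and its ligand Icam1 was 1.412-fold higher. Itgb1, a partner subunit of several integrins, was 1.537-fold higher, but not without the block (adjusted p = 0.07482). The gut-homing integrin subunit Itgb7 was at 405.1, 398.8 and 400.6 CPM in FO and 159.4, 176 and 139 CPM in MZ libraries (2.537-fold lower). The adhesion protein Icam2 was 1.79-fold and the GTPase Rap1b 1.715-fold lower.

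Of the Toll-like receptors that sense foreign nucleic acid, Tlr3, Tlr7 and Tlr9 were higher and Tlr8 and Tlr13 lower in MZ cells. Of 20 Toll-like receptor genes tested, 11 were higher and 4 lower, with a median log2 fold change of 0.235, and 10 of the 15 passed without the block. Tlr3, a sensor of double-stranded RNA, was at 2.992, 4.229 and 4.035 CPM in FO and 26.43, 19.83 and 30.12 CPM in MZ libraries, 6.782-fold higher. Of the sensors higher in MZ cells, Tlr7 (34.12, 55.93 and 50.83 against 76.02, 82.2 and 82.19 CPM) and Tlr9 (52.72, 49.84 and 55.67 against 76.29, 93.27 and 68.74 CPM) were 1.748-fold and 1.504-fold higher. Unc93b1, a chaperone of nucleic acid-sensing receptors, was 1.385-fold and Ticam1, the adaptor of TLR3, 1.742-fold higher. Cd180 and its partner Ly86, which hold back or modify TLR4 signals, were 1.604-fold and 1.611-fold higher. The 4 lower genes, Tlr8, Tlr11, Tlr12 and Tlr13, were all at or below 13.22 CPM in every CKO library. Of these 4, the calls of Tlr8, Tlr11 and Tlr13 were lost without the block (edgeR adjusted p = 0.05666, 0.0912 and 0.3101), and that of Tlr11 also without animal 1514 (0.06111).

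Of 19 genes that act next to the B cell antigen receptor, 5 were higher, 6 lower and 8 did not pass, with a median of 0.00191. The Src-family kinase Blk was at 550.5, 539.5 and 561.8 CPM in FO and 1098, 1013 and 1067 CPM in MZ libraries (1.934-fold higher). Cd81, a tetraspanin of the B cell coreceptor complex, was 2.023-fold, the adaptor Blnk 1.587-fold, Vav2 1.516-fold and Lyn 1.363-fold higher. Rasgrp3, which activates Ras, was at 254.1, 198.6 and 233 CPM in FO and 129.8, 90.47 and 96.54 CPM in MZ libraries (2.168-fold lower). Among 14 inhibitory receptors and phosphatases, Ptpn22 (2.469-fold) and Fcgr2b (1.353-fold) were higher and Btla, an inhibitory receptor of the CD28 family, was at 743.7, 556.2 and 769.6 CPM in FO and 352.8, 269 and 303.6 CPM in MZ libraries (2.215-fold lower); 4 of the list were higher, 4 lower and 6 did not pass.

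Complement regulators differed in both directions. Cd55, which dissolves complement convertases, was at 467.8, 374.3 and 458.8 CPM in FO and 114.7, 99.43 and 121.8 CPM in MZ libraries, 3.847-fold lower. Cd59a, which blocks the membrane attack complex, was 7.771-fold higher, from 0.3668 to 0.7048 CPM in FO to 3.451 to 4.368 CPM in MZ libraries. The IgM receptor Fcmr was 1.538-fold lower. Of the 11 complement and Fc receptor genes 5 were higher and 4 lower.

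T cell help runs through MHC class II and costimulatory ligands. Of 12 MHC class II genes, 4 were lower and 1 (Ifi30) higher in MZ cells, the latter not without the block (edgeR adjusted p = 0.1779) or without animals 1512 or 1514 (0.1474 and 0.1419). The lower ones included Ciita, the regulator of class II transcription, at 1043, 904.9 and 1096 CPM in FO and 635.5, 556 and 640.4 CPM in MZ libraries (1.651-fold), and H2-Ob, which restrains peptide loading (1.691-fold). The class II genes H2-Ab1, H2-Eb1 and Cd74 did not pass, but H2-Ab1 passed as lower without animal 1512 (log2 fold change -0.2351, edgeR adjusted p = 0.01874). Cd80, Cd86 and Cd274 (PD-L1) were 2.311-fold, 1.928-fold and 2.157-fold higher in MZ cells, and Icosl (1.836-fold) and Cd83 (1.627-fold) were lower. Cd86 was at 25.35, 29.65 and 33.09 CPM in FO and 58.27, 49.78 and 60.49 CPM in MZ libraries.

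Among 35 B cell transcription factors, 10 were higher, 15 lower and 10 did not pass, and 19 of the 25 calls held without the block. Ahr, the aryl hydrocarbon receptor, was at 8.553, 11.55 and 13.36 CPM in FO and 60.75, 46.52 and 65.68 CPM in MZ libraries, 5.214-fold higher. Prdm1 (Blimp-1), which drives antibody secretion, was at 2.68, 3.373 and 3.616 CPM in FO and 10.32, 8.704 and 10.49 CPM in MZ libraries, 3.08-fold higher. Its opponents Bach2 (157.8, 159.9 and 153.1 against 40.97, 49.75 and 38.24 CPM) and Bcl6 (96.43, 89.01 and 97.93 against 34.52, 33.98 and 32.91 CPM) were 3.651-fold and 2.777-fold lower. Klf2, a quiescence and homing factor, was at 350.6, 382.3 and 386.8 CPM in FO and 95.37, 129.3 and 81.11 CPM in MZ libraries, 3.703-fold lower. Its relatives Klf3 (1.836-fold) and Klf6 (1.732-fold) were lower as well. The E protein Tcf4 was 1.722-fold higher and Id3, an inhibitor of E proteins, 1.767-fold lower, and Satb1 was 2.083-fold lower. Pax5, Ebf1, Xbp1 and Spi1 did not pass.

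Of 17 immediate early genes, which cells induce within minutes of a signal, 10 were lower, 1 higher and 6 did not pass (median log2 -0.302). Fos was at 27.38, 38.56 and 28.32 CPM in FO and 11.76, 19.37 and 14.25 CPM in MZ libraries (2.083-fold lower), Ier2 was 2.246-fold, Jund 1.777-fold and Junb 1.706-fold lower. Myc, which drives cell growth, was at 64.74, 67.99 and 61.33 CPM in FO and 136.1, 167.1 and 125.4 CPM in MZ libraries, 2.207-fold higher. Of 12 NF-kB genes 7 were lower and 2 higher, all by less than 1.5-fold; Nfkbia, the inhibitor that NF-kB induces, was 1.453-fold lower. Cell separation by kit preceded RNA extraction, and its part in the immediate early genes was not tested.

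Of 20 endoplasmic reticulum chaperone and stress genes, 9 were higher, 2 lower and 9 did not pass. Pdia4, a disulfide isomerase, was at 313.7, 294.9 and 322.9 CPM in FO and 1410, 1091 and 1289 CPM in MZ libraries, 4.071-fold higher. Edem1 was 1.667-fold and the stress sensor Atf6 1.489-fold higher, while Xbp1 was at 134.2 to 139.8 CPM in FO and 136.2 to 148.8 CPM in MZ libraries and did not pass. Sdc1 (CD138), the surface marker of plasma cells, was at 20.19, 29.1 and 22.48 CPM in FO and 4.517, 7.788 and 4.334 CPM in MZ libraries, 4.358-fold lower. Of the 9 plasma cell genes, 4 were higher (Prdm1, Irf4, Mzb1, Ell2) and 2 lower (Sdc1, Jchain). Jchain did not pass without the block (edgeR adjusted p = 0.3333).

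Among immunoglobulin constant genes, Ighm was at 5093, 5016 and 5006 CPM in FO and 7694, 6620 and 6243 CPM in MZ libraries, 1.362-fold higher, and missed the threshold without animal 1514 (edgeR adjusted p = 0.05609). Ighg3 was 1.925-fold higher at 19.16, 24.87 and 9.432 against 52.14, 41.56 and 13.75 CPM. Igha was lower in each animal (135.1, 484.6 and 178.6 against 104.2, 323.4 and 142.2 CPM, 1.341-fold), and Ighg1 was 2.127-fold lower. In both cell types Igha and Ighg1 were highest in animal 1514, so the groups overlap. The calls of Ighg3, Ighg1 and Igha were lost without the block (adjusted p = 0.3883, 0.7476 and 0.7306). The Ighg genes are close copies of one another, and reads may be split among them.

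Of 18 cytokine receptors, 11 were lower and 3 higher in MZ cells, 4 did not pass, and 8 of the 14 calls held without the block. Il4ra was at 683.4, 627.5 and 702.4 CPM in FO and 315.7, 309.8 and 307 CPM in MZ libraries (2.145-fold lower) and Il21r, whose ligand comes from follicular helper T cells, was 2.315-fold lower. Csf2rb, the shared chain of the IL-3, IL-5 and GM-CSF receptors, was at 21.84, 36.3 and 28.43 CPM in FO and 112.1, 134.3 and 106.3 CPM in MZ libraries, 4.154-fold higher. Il9r was 2.656-fold higher (186.3, 87.98 and 167.5 against 545, 270.8 and 343.3 CPM), but not without the block (adjusted p = 0.09783). Of 7 cytokine genes tested, Il10 was 5.609-fold higher from at most 0.1787 CPM in FO to 0.635 to 0.9925 CPM in MZ libraries, Ebi3 was 1.94-fold higher, and Il12a (2.509-fold), Tnf, Ltb and Tgfb1 were lower. The FO values of Il10 were below the filter on low counts, so it was tested only because of its MZ values. The calls of Tnf and Ltb were lost without the block (edgeR adjusted p = 0.2356 and 0.0517) and without animal 2002 (0.1011 and 0.1207), and that of Tnf also without animal 1512 (0.2932). For the survival factor BAFF, the receptor Tnfrsf13b (TACI) was 1.254-fold higher and Tnfrsf13c (BAFF receptor) 1.297-fold lower. In that list 2 of 9 genes were higher and 1 lower, beside 19.2% and 16.6% of all genes tested. In the BCL2 family, 5 of 14 genes were higher and 3 lower: Bid, which promotes death, was 2.719-fold higher and Bmf, also a promoter of death, 2.505-fold lower.

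Most glycolysis genes were higher and most cholesterol genes lower in MZ cells. Of 14 glycolysis genes 11 were higher and none lower in MZ cells, 9 of them also without the block, with a median log2 fold change of 0.448. Pgk1 was at 81.35, 92.18 and 79.93 CPM in FO and 146, 142.7 and 117.8 CPM in MZ libraries (1.609-fold), and Tpi1 (1.59-fold) and Gpi1 (1.477-fold) were higher too. Of 10 cholesterol genes 8 were lower and 1 higher (median -0.447), with 5 of the 9 calls kept without the block. Abca1, which exports cholesterol, was at 263.4, 260.1 and 293.8 CPM in FO and 118, 120 and 125.1 CPM in MZ libraries (2.236-fold lower). Abcg1, also an exporter, was 1.471-fold higher.

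Cell cycle genes were higher in MZ than in FO cells within animals. Of 24 genes, 18 were higher and 1 (Ccnd3) lower, with a median log2 fold change of 0.364; without the block 1 passed, E2f1, and the adjusted p was 0.688 for Mki67 and 0.1761 for Ccnd3. Mki67, a marker of cycling cells, was at 37.09, 149 and 23.82 CPM in FO and 83.46, 204.8 and 56.26 CPM in MZ libraries. Top2a was at 28.07, 108.4 and 24.76 CPM in FO and 74.1, 167.8 and 57.42 CPM in MZ libraries (log2 1.07, adjusted p = 0.01084; 0.5529 without the block). The FO library of animal 1514 thus held more Mki67 and Top2a than the MZ libraries of the other two animals. Without animal 1514 16 of the 24 were higher and 1 lower, and without animals 1512 or 2002 16 and 19 were higher. Mki67 passed narrowly (adjusted p = 0.04521) and missed it under 2 other scalings (0.05083 and 0.05889). E2f1, which drives entry into DNA synthesis, was at 3.618, 6.243 and 3.773 CPM in FO and 8.041, 11.55 and 7.647 CPM in MZ libraries, 2.031-fold higher without overlap.

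Markers of other cells were counted in every CKO library, with lower sums in the MZ library of each animal. All 11 T cell markers were lower (median log2 -0.664), and their summed level was 435, 441 and 299 CPM in FO and 293, 325 and 203 CPM in MZ libraries. Of these, Cd4 and Cd28 also passed without the block. Of 8 NK cell markers 7 were lower and 1 (Prf1) higher, with sums of 103 to 139 CPM in FO and 76.4 to 99.3 CPM in MZ libraries. Of 11 neutrophil markers 10 were lower, with sums of 126, 424 and 190 CPM in FO and 74, 261 and 107 CPM in MZ libraries; none passed without the block. Macrophage markers (4 of 13 lower, sums of 308 to 582 and 235 to 386 CPM) and dendritic cell markers (5 of 9 lower, 77.8 to 113 and 58.9 to 85.6 CPM) followed the same direction. Erythroid and platelet markers summed to 64.6, 343 and 25 CPM in FO and 50.7, 293 and 21.9 CPM in MZ libraries, and 4 of 9 were lower. Several genes lower in MZ cells, such as Ccr7, Klf2, Satb1 and Il21r, are also expressed by T cells, and the part of other cells in their values was not tested. Fewer cells of a type and less RNA per cell cannot be told apart in these bulk libraries.

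**Figure D3:**
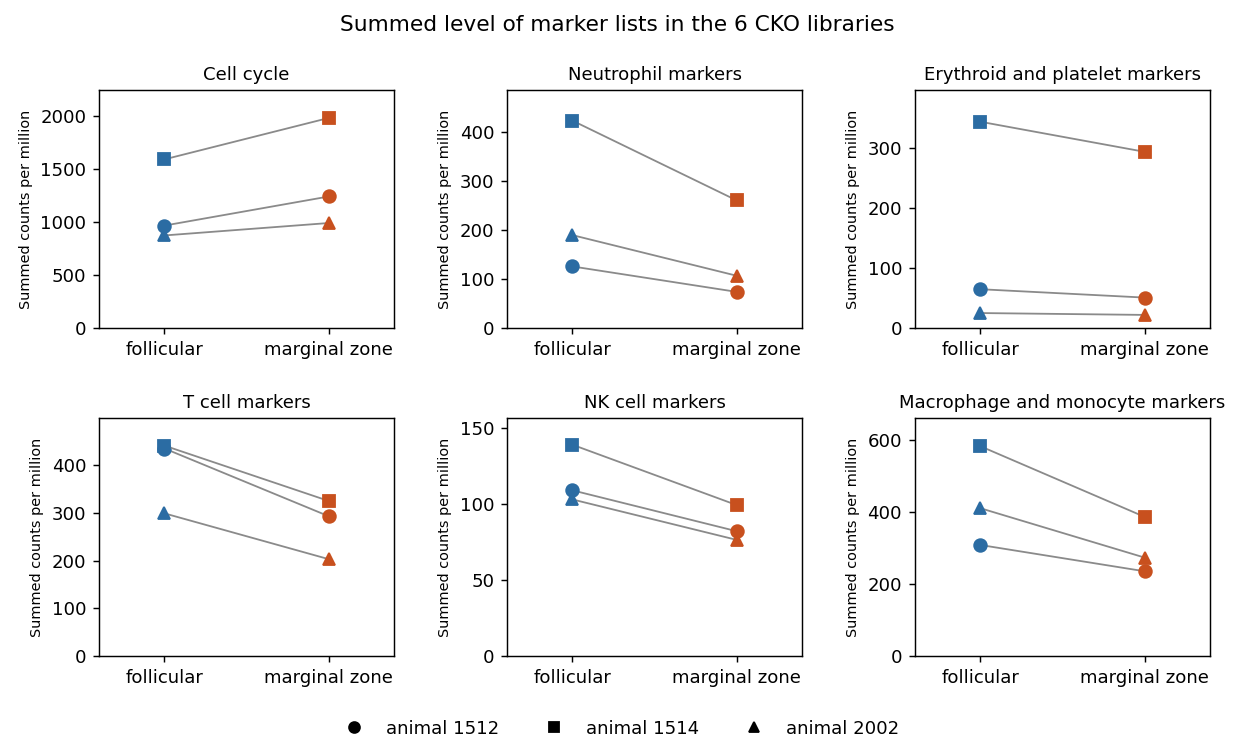
Summed CPM of 6 marker lists in the 6 CKO libraries, with grey lines joining the FO and MZ library of an animal. Animal 1514 is highest for each list in both cell types; neutrophil markers, for example, sum to 424 and 261 CPM there. Within each animal the cell cycle sum is higher and the 5 other sums are lower in MZ than in FO cells.

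Markers of other B cell stages were read in the same way. All 6 germinal centre markers tested were lower in MZ cells (median -1.36), from a summed level of 113 to 124 CPM in FO to 41.8 to 48.9 CPM in MZ libraries, of which Bcl6 made up the larger part and alone passed without the block. The others were at or below 11.05 CPM in every library. Of 5 transitional B cell markers tested, Cd93 (2.351-fold) and Vpreb3 (2.028-fold) were lower and Cd24a was 1.574-fold higher; the call of Vpreb3 was lost without the block (adjusted p = 0.05105). Of 8 B-1 cell markers 2 were higher and 4 lower, among them Bhlhe41, 2.311-fold higher, and Cd5, 1.212-fold lower, which did not pass without the block (edgeR adjusted p = 0.2563) or without animal 2002 (0.07506). Of 12 interferon-stimulated genes 6 were higher and 2 lower, and none passed without the block.

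The same contrast in the control animals, fitted on its own 6 libraries, gave 7805 of 17830 genes (43.8%), 3999 higher (22.4%) and 3806 lower (21.3%) in MZ cells. Of 17415 genes tested in both genotypes, 3380 were higher in MZ cells of CKO animals, and 84.1% of them were also higher in controls, while 72.2% of the genes higher in controls were also higher in CKO animals. For lower genes the shares were 83.8% and 64.4%. Of the CKO genes that passed, 98.8% in each direction had the same sign in controls, against 81.6% of all genes tested in both. Across these genes, which are not independent replicates, Pearson's r of the 2 log2 fold changes was 0.894 and Spearman's rho 0.807. The MZ markers, with a median of 2.18 in CKO and 2.39 in control animals, and FO markers, with -1.32 and -1.51, passed in the same directions in both genotypes. Cell cycle genes were higher in 8 and lower in 4 of 24 in controls (median 0.102), and none of the 24 was among the genes whose difference between genotypes passed.

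**Figure D4:**
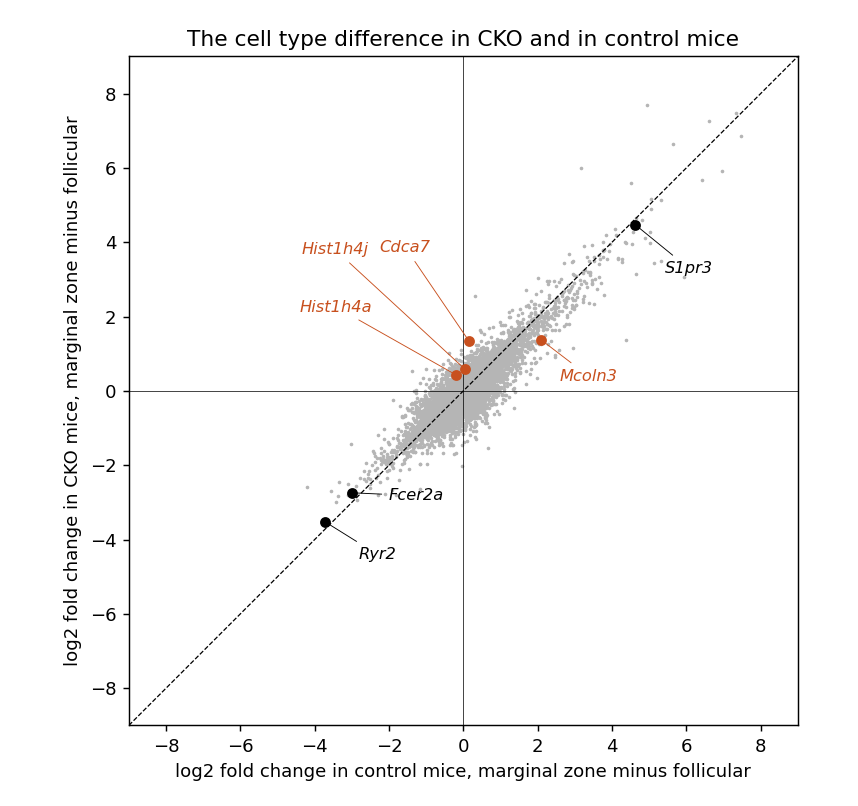
Log2 fold change (MZ minus FO) in CKO mice (y axis) against control mice (x axis), 1 point per gene tested in both genotypes, with the dashed line marking equal values. The 4 genes whose difference between genotypes passed are in orange: Mcoln3 lies below the line and Cdca7, Hist1h4a and Hist1h4j above it, while S1pr3, Fcer2a and Ryr2 lie close to it.

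The difference of the cell type contrast between genotypes was tested itself, as an interaction over all 12 libraries with animals as blocks. Of 18546 genes 4 passed (0.0216%), 3 with a larger log2 fold change in CKO animals (0.0162%) and 1 with a smaller one (0.00539%), and 968 (5.22%) had an unadjusted p under 0.05. Mcoln3, an endolysosomal cation channel, was at 20.86, 21.65 and 21.8 CPM in FO and 61.22, 54.28 and 51.07 CPM in MZ libraries of CKO animals. In controls it was at 9.7, 10.42 and 8.484 CPM in FO and 39.54, 44.34 and 37.69 CPM in MZ libraries. It was higher in MZ cells of both genotypes, by a smaller factor in CKO animals (log2 1.38 against 2.09, difference -0.72 ± 0.11 SE, edgeR adjusted p = 0.002535). Without the block none of the 4 differences passed in edgeR, where 238 genes had an unadjusted p under 0.05.

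Cdca7, a chromatin factor that is itself an ICF syndrome gene, was at 1.005, 2.643 and 0.5502 CPM in FO and 2.755, 5.37 and 1.877 CPM in MZ libraries of CKO animals. In controls it was at 31.64 to 33.83 CPM in FO and 33.11 to 42.43 CPM in MZ libraries. The MZ value was above the FO value in every CKO animal, with log2 fold changes of 1.34 in CKO and 0.15 in control animals (difference 1.14 ± 0.17 SE, edgeR adjusted p = 0.002535). Every control library held more Cdca7 than any CKO library. In CKO animals alone its call was lost without the block (adjusted p = 0.2917), and animal 1514 held the most Cdca7 in both cell types. Of the other ICF genes, Hells was 1.602-fold higher in MZ cells, not without the block either (adjusted p = 0.07189), and Dnmt3b and Zbtb24 did not pass.

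The other two are histone H4 genes. Hist1h4a was at 13.89, 32.62 and 14.07 CPM in FO and 19.83, 44.03 and 17.72 CPM in MZ libraries of CKO animals, and at 18.95, 24.77 and 18.09 CPM in FO and 15.35, 21.48 and 16.89 CPM in MZ libraries of controls. Every CKO animal had more, and every control animal less, in MZ than in FO cells (difference 0.63 ± 0.11 SE, edgeR adjusted p = 0.02964). Hist1h4j was higher in MZ cells of every CKO animal (log2 0.59) and had a log2 fold change of 0.04 in controls, with a difference of 0.54 ± 0.10 SE (edgeR adjusted p = 0.04818). Both calls were lost when control animal 1505 was left out (edgeR adjusted p = 0.6355 and 1), and neither gene passed within CKO animals without the block (0.678 and 0.661). Histone H4 genes encode the same protein from near-identical sequences, so reads may be split between them, and the labels do not say whether RNA with poly(A) tails was selected.

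**Figure D5:**
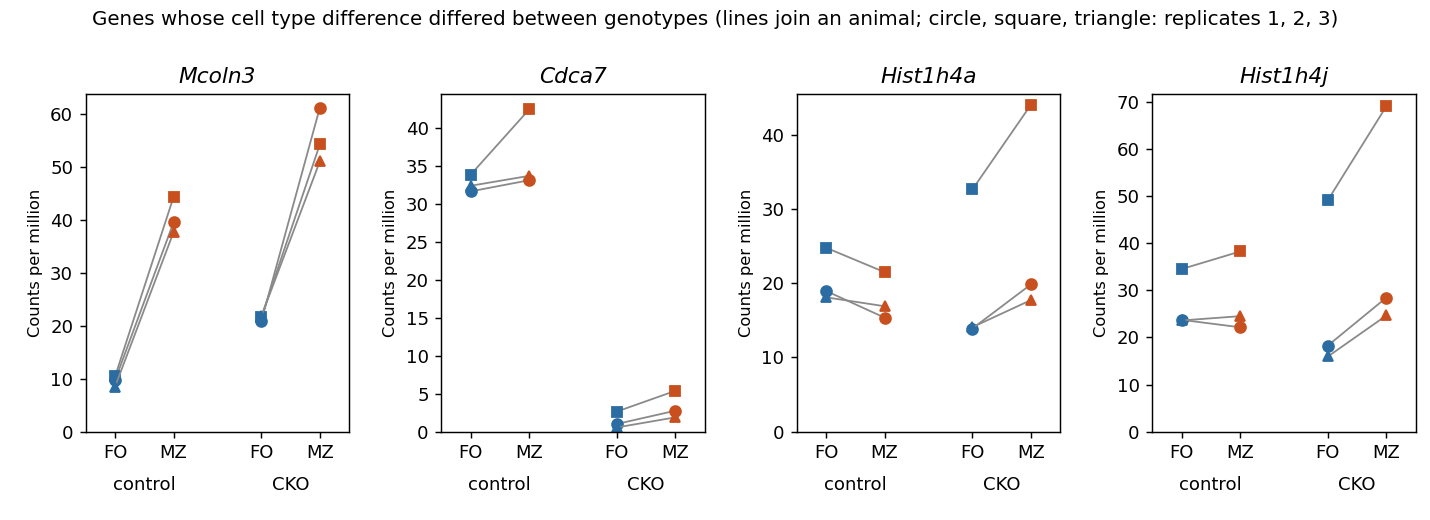
CPM of the 4 genes whose MZ against FO difference differed between genotypes, for control (left) and CKO (right) animals in each panel; lines join the FO (blue) and MZ (orange) library of an animal, with circle, square and triangle for replicates 1, 2 and 3. Cdca7 lies at 31.64 CPM or more in controls and at 5.37 CPM or less in CKO animals, and the squares of animal 1514 lie highest for both histone genes.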

How the data were processed

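RNA of MZ and FO B cells from 3 CKO and 3 control mice was sequenced with a TruSeq RNA kit, per the labels' protocols. The authors deposited 1 table of counts per gene, made with TopHat and HTSeq on GRCm38 (mm10) and tested with DESeq2, per the submitters' processing notes, which give no versions; the strand setting was not given there. Its 5 entries that name no gene held 43.7% to 50.4% of reads in the CKO libraries and were left out. Symbols came from Gencode M21 (45143 of 46078 genes).

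Here edgeR 4.0.16 in R 4.3.3 was run with TMM scaling, filterByExpr and a robust quasi-likelihood fit, two-sided, with Benjamini-Hochberg adjustment over all genes tested and the animal as a block. CPM values are TMM-scaled counts. Same-numbered FO and MZ libraries deviated together (r of 0.464, 0.651 and 0.604 in CKO animals, negative for the FO and MZ pairs with different numbers). Deviations from a group mean cancel within the group, so the negative values add nothing of their own. That a number is 1 animal is read from the descriptions. On simulated counts for 17434 genes, 200 of them changed, the blocked fit of the CKO contrast recovered 88% of log2 changes of 0.5 and 97% of changes of 1, with 6 false calls. The fit without the block recovered 19% and 68% with 0 false calls. The simulation gave both libraries of an animal the same animal effect, took its spread from the blocked fit and changed only well-counted genes. These settings favour the block, so the simulation cannot tell whether a call lost without the block is true or false.

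In each direction the named genes are the 14 with the largest fold among genes that passed, did not overlap and had a mean of 5 CPM or more in one cell type, leaving out predicted genes, pseudogenes and receptor segments; list members and genes that passed the genotype difference follow. Some genes that are counted above are not reported here by name. Members and lists were chosen with earlier results of these data known. Alternatives were the fit without the block, DESeq2 1.42.0, limma 3.58.1 (voom), other filters and scalings, and libraries left out.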

Additional observations from a re-analysis of the deposited data

Results flagged for a closer look

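The MZ against FO difference of 4 genes differed between CKO and control animals by the test of the difference itself, with log2 differences (CKO minus control) of -0.72 for Mcoln3, 1.14 for Cdca7, 0.63 for Hist1h4a and 0.54 for Hist1h4j. In limma-voom Mcoln3 passed, and Cdca7 (adjusted p = 0.09415), Hist1h4a (0.05128) and Hist1h4j (0.09415) did not. Hist1h4a also missed the threshold in edgeR without CKO animal 1512 or 1514 (adjusted p = 0.1057 and 0.07845) or control animal 1507 (0.05472). Hist1h4j missed it without CKO animal 1512 (edgeR adjusted p = 0.1057) or control animal 2003 (0.1287). Without robust estimation Hist1h4a and Hist1h4j both missed it (edgeR adjusted p = 0.07874 and 0.1303). Hist1h4j missed it too when at least 1 CPM in 3 libraries was required (edgeR adjusted p = 0.07318). In edgeR without the block the adjusted p was 1 for each of the 4.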

How the results depend on the processing

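The replicate block takes differences within animals. Without it 3243 genes passed in CKO animals (1865 higher, 1378 lower), 4977 in controls (2653 and 2324), and 0 for the genotype difference (0 and 0; 238 at an unadjusted p under 0.05 in edgeR). Of the 170 genes followed through the alternatives, 25 lost their call in CKO animals without the block and none changed direction. For CKO animals DESeq2, voom, the other filters and scalings, and the fit without robust estimation gave counts within 1.5 times those reported. Under upper quartile scaling 2962 genes were higher and 3528 lower, so that the lower genes were then the larger set. The genotype difference passed for 1 gene in voom (0 higher), 2 without robust estimation (1 higher) and 39 with no filter on low counts (22 higher, 17 lower); the cause was not tested. Leaving out an animal gave 5010 to 5760 genes in CKO animals (2768 to 3048 higher, 2242 to 2712 lower), 5454 to 7126 in controls (2871 to 3695 higher, 2583 to 3431 lower) and 2 to 31 for the difference (1 to 23 higher, 1 to 8 lower). The count for the difference was 14, 31 and 17 without CKO animal 1514, CKO animal 2002 and control animal 1507, and 2 without control animal 1505. Leaving out single libraries without the block gave 1898 to 2884 genes (1097 to 1639 higher, 801 to 1245 lower).

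Upper quartile scaling turned the sign of 3 genes that did not pass, Dnmt3b (-0.03216), Ebf1 (-0.0156) and Spi1 (-0.01106), and gave Zbtb24 a call (-0.195, edgeR adjusted p = 0.02214). Without animal 1512, H2-Ab1 gained a lower call (-0.2351, adjusted p = 0.01874). With libraries left out the log2 fold change ran from -0.02061 to 0.03763 for Dnmt3b, -0.009004 to 0.06638 for Ebf1, -0.05431 to 0.1228 for Spi1, -0.004344 to 0.09362 for Xbp1 and -0.2103 to 0.08759 for Nrarp, none of which passed with all libraries. Among genes that passed it ran from -1.111 to 0.2837 for Igha, -2.827 to 0.5461 for Ighg1, -0.1008 to 0.9683 for Hist1h4a and -0.06204 to 1.26 for Hist1h4j; the ends came without the FO or the MZ library of animal 1514 in fits without the block. Heyl (8 counts in the FO and 115 in the MZ libraries) and Il10 (17 and 91) rest on few counts. Both met the filter on low counts only through their MZ libraries. Tsga13 (21 counts in the FO and 1014 in the MZ libraries) and Myo18b (29 and 670) also met it only through their MZ libraries.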

Other observations

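Gene families outside the lists were counted after their values had been seen. Of 82 cytosolic ribosomal protein genes tested, 76 were higher and 0 lower in MZ cells of CKO animals (edgeR, all with an adjusted p under 0.05; 62 without the block), with a median log2 fold change of 0.419 against -0.00932 over all genes; in controls 81 were higher (median 0.446). Rplp0, a subunit of the large ribosomal stalk, was at 1739, 1849 and 1844 CPM in FO and 3364, 2902 and 2696 CPM in MZ libraries (log2 0.72). Of 16 genes of the mitochondrial genome 2 were higher and 0 lower.

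Of 93 Igkv segments, the variable segments of the kappa light chain, 44 were lower and 9 higher in MZ cells (median -0.388), and 53 and 11 in controls. Igkv4-51 was at 6.565, 6.419 and 8.174 CPM in FO and 1.737, 1.654 and 2.402 CPM in MZ libraries (log2 -1.87), and Igkv2-109 was higher (13.69, 14.1 and 15.35 against 22.91, 23.26 and 29.49 CPM, log2 0.81). Of 102 Ighv segments 16 were higher and 15 lower, and 8 of these calls held without the block. Over all genes tested 19.2% were higher and 16.6% lower. Segments resemble one another, and reads may be split between them.

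Of 56 replication-dependent histone genes 32 were higher and 2 lower in MZ cells of CKO animals (median 0.349), but the 1 gene that passed without the block was a lower one, and in controls 13 were higher and 9 lower (median 0.0695). Of 12 class switch and repair genes 4 were higher and 2 lower, of 12 DNA methylation genes 4 and 3, and of 8 heat shock genes 3 and 3. Lists this short were not tested against the shares of 19.2% higher and 16.6% lower over all genes tested.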
